A study of Homo sapiens with 20 samples.

Results

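RUNX1 binding around the genes of tumor necrosis factor (TNF) superfamily ligands and receptors was examined in THP-1 cells, a human line established from acute monocytic leukemia. The list held 38 genes, made up of 14 ligands and 24 receptors, and its peaks were all RUNX1 peaks within 50 kb of the RefSeq span of one of these genes (assembly GRCh38.p14). This rule found 105 of the 26642 peaks in the count table. At least 1 peak lay near 32 of the 38 genes, whereas TNFRSF25, CD40, CD40LG, TNFSF18, TNFSF11 and TNFRSF11B had none. Across the genome, 16194 of 20033 protein-coding genes had a peak within the same distance.

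Knockdown cells (n = 6 libraries) carried an shRNA directed at the transcription factor PU.1 and control cells (n = 6 libraries) a scramble shRNA, and in both the shRNA was induced with doxycycline. The study ran 2 experimental rounds, or batches. The first gave 3 control and 2 knockdown libraries, and the second gave 3 of control and 4 of knockdown. The study describes the libraries as cell line replicates with separate immunoprecipitations and library preparations. The p-values therefore measure the spread between replicates within each of the shRNA-carrying THP-1 lines. Control and knockdown cells were separate lines, so an effect of PU.1 cannot be told apart from other differences between these lines. Of the 20 samples, the other 8 were IgG immunoprecipitations and were not analysed here. The question was how a lower PU.1 level changes where RUNX1 binds. ChIP-seq measures binding and not transcripts, so the level of PU.1 itself and the expression of the TNF superfamily genes could not be read from these libraries.

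Ligands of the TNF superfamily are mostly membrane proteins of immune cells that act as trimers, and they bind receptors with cysteine-rich extracellular domains. Receptors with an intracellular death domain, such as FAS and the TRAIL receptors TNFRSF10A and TNFRSF10B, can recruit FADD and caspases and start apoptosis, and decoy receptors bind the ligand without passing on a complete death signal. Most other receptors recruit TRAF adaptors and activate NF-κB, which supports survival and inflammation in monocytes and lymphocytes. RUNX1 and PU.1 are partner transcription factors of the myeloid lineage.

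Control libraries had 630247 to 1199004 counts in peaks, and those of the knockdown had 938745 to 1719840. The 105 peaks took 0.430% ± 0.00815 of these counts in control and 0.415% ± 0.00805 in knockdown (SD, n = 6 each). Single libraries ranged from 0.416% to 0.436% in control and from 0.402% to 0.423% in knockdown. All values below are normalised counts, that is, counts divided by the size factor of the library, and the median peak of the list had 32.2 of them. Peaks lay within 50 kb of all 7 monocytic marker genes examined and of 1 of 4 erythroid ones, but also of all 4 B cell markers and 3 of 4 T cell markers, so binding near a gene did not tell the cell type.

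RUNX1 peaks lay over the start of 7 genes of the list, namely TNFSF10, TNFSF13B, TNFSF14, TNFSF9, TNFRSF1A, TNFRSF14 and TNFRSF21, among the 25 genes with a promoter entry. For genes with several entries the first one was used. The peaks over the promoters of TNFSF10 and TNFSF13B were called lost, and those over the other 5 promoters were not called. The sequences before the start of both lost promoters are shown, with that of TNFRSF21 as an uncalled promoter of the same kind. Each run holds the 250 bases before the start, 5′ to 3′ on the strand of the gene, from RefSeq (GRCh38.p14), at chr3:172523431-172523680 (minus strand), chr13:108269379-108269628 (plus strand) and chr6:47309906-47310155 (minus strand). Capitals mark the letters TGTGGT or TGCGGT, which RUNX proteins can bind, and GAGGAA, the core letters of a PU.1 site, searched on both strands.
TNFSF10: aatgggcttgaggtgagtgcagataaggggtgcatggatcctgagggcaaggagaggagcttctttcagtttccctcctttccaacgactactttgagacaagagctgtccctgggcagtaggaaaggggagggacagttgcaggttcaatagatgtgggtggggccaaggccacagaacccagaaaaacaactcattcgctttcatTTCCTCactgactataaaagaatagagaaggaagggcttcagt
TNFSF13B: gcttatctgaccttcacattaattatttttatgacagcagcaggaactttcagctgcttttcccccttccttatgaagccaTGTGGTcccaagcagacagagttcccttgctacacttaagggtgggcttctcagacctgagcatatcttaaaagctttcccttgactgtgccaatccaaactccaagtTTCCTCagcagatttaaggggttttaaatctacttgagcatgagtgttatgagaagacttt
TNFRSF21: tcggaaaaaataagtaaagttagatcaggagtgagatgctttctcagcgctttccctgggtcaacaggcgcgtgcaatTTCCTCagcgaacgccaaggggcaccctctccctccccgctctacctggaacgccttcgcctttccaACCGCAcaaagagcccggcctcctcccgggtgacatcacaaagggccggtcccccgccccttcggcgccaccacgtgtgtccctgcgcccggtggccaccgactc

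The TNFSF10 promoter held GAGGAA once on the opposite strand, starting at position -43 from the start, and neither form of the RUNX letters. The TNFSF13B promoter held TGTGGT at position -169 and GAGGAA on the opposite strand at position -61, but only the last 44 of its 250 bases lay under the peak and neither match did. In the TNFRSF21 promoter, all of which lay under its peak, TGCGGT was present on the opposite strand at position -105 and GAGGAA at position -172. Of 27305 promoter windows of this length, 16.1% held either form of the RUNX letters and 23.4% held GAGGAA. The RUNX letters were present in 2 and GAGGAA in 3 of the 7 promoters with a peak. These matches describe the letters of the windows and were not tested as binding sites.

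All 105 peaks were tested in the fit over all peaks, and RUNX1 binding changed at 41 of them (39%). With the knockdown, 19 peaks were gained and 22 lost, at an adjusted p under 0.05 and a fold change over 1.1 (DESeq2 with batch as a covariate, adjusted over all peaks). The background was of the same size, with 42% of all peaks called (21.3% gained and 20.7% lost) and 40.6% of the other 22951 peaks within 50 kb of a protein-coding gene (20.5% gained and 20.1% lost). By edgeR, 48 of the 105 peaks were called, 24 gained and 24 lost, beside 47.1% of all peaks (24.1% gained and 22.9% lost). The median log2 fold change of the 105 peaks was -0.06, against -0.03 for those other peaks, and single peaks ranged from -2.63 to 1.64. A change over 2-fold was called at 15 peaks (14.3%), 8 gained and 7 lost, beside 17.1% of all peaks (8.86% gained and 8.2% lost).

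In 27 peaks (25.7%), every knockdown library lay beyond every control library of its own batch, above in 11 and below in 16. Among all peaks this held for 28.3% (14.4% above and 13.9% below). The 8 gains and 8 largest losses named below were picked among such peaks that were called with a mean of at least 20 normalised counts. Only 8 gains met this rule, so all of them are named, whereas 13 losses met it. The lack of overlap within batches of the named gains and losses was therefore required by the naming rule and is no further support. Called gains sat at weaker and narrower peaks of the list, with a median normalised count of 23.8 and a median width of 767 bp, whereas called losses had medians of 33.2 and 940 bp and uncalled peaks of 34.8 and 1010 bp. Among the other peaks near protein-coding genes the medians were 27.1 and 783 bp for gains and 32.7 and 946 bp for losses.

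**Figure D1:**
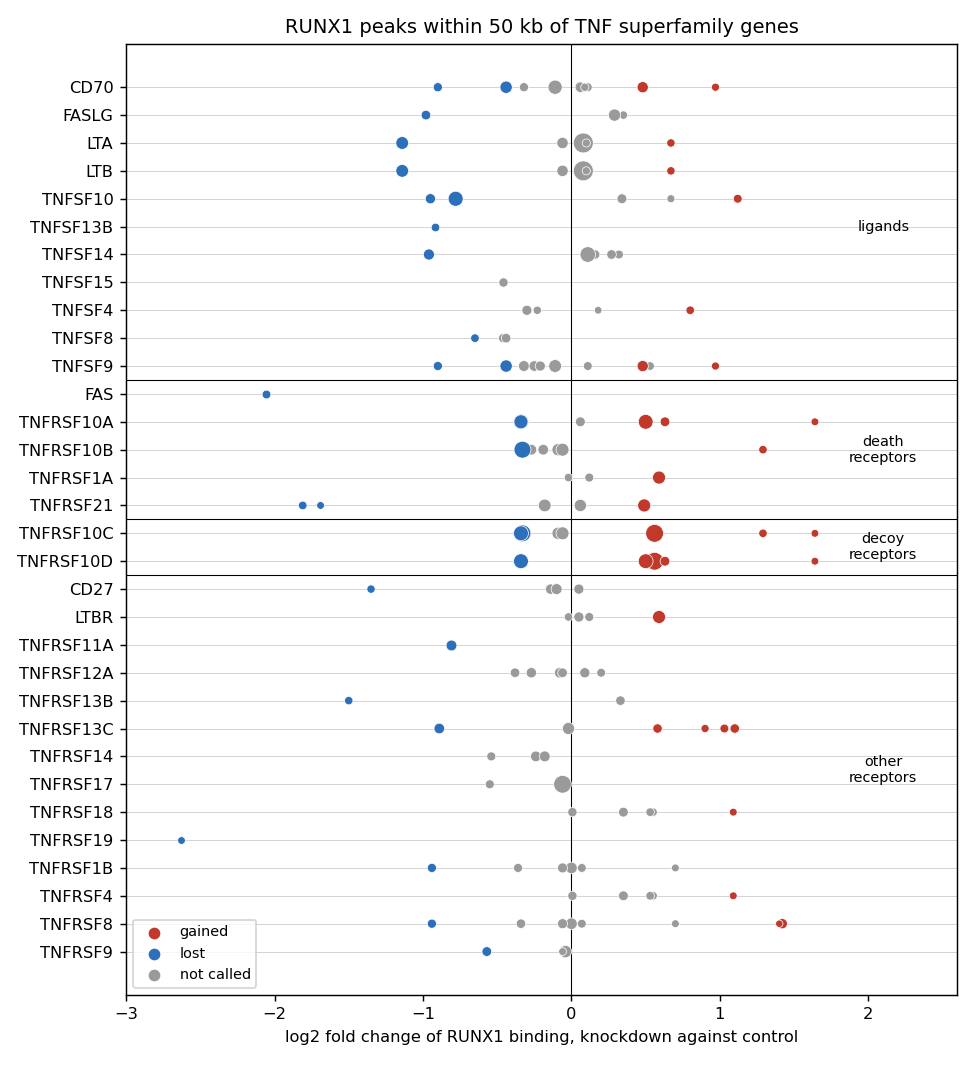
Each point is 1 RUNX1 peak within 50 kb of the gene named on the vertical axis, placed by its log2 fold change, with larger points for higher mean counts and colours for gained, lost and uncalled peaks. Peaks near several genes appear once per gene. Gains and losses sit side by side at CD70, TNFSF10, TNFRSF10A to TNFRSF10D, TNFRSF13C, TNFRSF21 and TNFRSF8, and the single peaks of FAS and TNFRSF19 lie farthest to the left.

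Proximity does not make a gene the target of a peak, and 39 of the 105 peaks lay nearer to a protein-coding gene outside the list. Of the 66 peaks whose nearest gene was in the list, 28 (42.4%) were called, 12 gained and 16 lost. Peaks inside a gene of the list numbered 33, of which 13 (39.4%) were called. Just inside the 50 kb limit lay a peak 48473 bp from TNFRSF17 with a log2 fold change of -0.06 and one 47803 bp from TNFRSF21 with -1.81. Just outside it lay peaks 50884 bp from TNFSF13B and 52547 bp from TNFSF14, with -0.19 and -0.37, and a peak 54309 bp from TNFRSF12A with -1.12.

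The genes fell into 21 loci, of which 7 held several genes of the list, and 36 peaks were in reach of more than 1 of them. At least 2 called peaks were found in 8 loci, and all 8 held gains as well as losses. Counted by gene, 12 genes of the list had at least 2 called peaks and all 12 had both directions, compared with 53.6% of 5528 other protein-coding genes. This share rose with the number of called peaks, from 40.1% of other genes with 2 to 85.8% of those with 5. Since neighbouring genes share peaks, the 12 genes are not 12 separate observations, and the difference was not tested.

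The ligand genes had 41 peaks near 11 of 14 genes, of which 5 were gained (12.2%) and 9 lost (22%), beside 21.3% and 20.7% of all peaks. The peak at the start of TNFSF10 was lost. TNFSF10 encodes TRAIL, which triggers apoptosis through TNFRSF10A and TNFRSF10B. At the promoter peak (chr3:172522895-172524083) control libraries held 40 to 69.1 normalised counts with a median of 53.9, and knockdown libraries held 19.6 to 35.1 with a median of 25.4. No knockdown library reached the lowest control. The log2 fold change was -0.95 (SE 0.19, DESeq2 adjusted p = 5.78e-06), with -1.05 in batch 1 and -0.88 in batch 2.

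A peak 7144 bp beyond the TNFSF10 span on the promoter side (chr3:172530574-172531286) changed the other way. Control libraries held 6.5 to 22.1 (median 16) and knockdown libraries 24.4 to 48.7 (median 31.4), a log2 fold change of 1.12 (SE 0.26, DESeq2 adjusted p = 9.17e-05). Here too the groups did not overlap, although the peak missed the threshold within batch 1 (1.45, DESeq2 adjusted p = 0.0588). Inside the gene, the strongest peak of the locus held a mean of 143.6 ± 6.06 in control and 84.4 ± 10.3 in knockdown (SD, n = 6), and it fell by 0.78 on the log2 scale (SE 0.11, DESeq2 adjusted p = 1.02e-10). This peak was outside the naming rule and was chosen after its values were seen, as the neighbour of both others.

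TNFSF13B encodes BAFF, a survival factor for B cells that monocytes can make. Its only peak, at the start of the gene (chr13:108269585-108270406), held 25.3 to 29.96 in control with a median of 27.4 and 11.2 to 19.2 in knockdown with a median of 13.4. The groups did not overlap, and the log2 fold change was -0.92 (SE 0.24, DESeq2 adjusted p = 0.000704). It was -0.89 in batch 1, where it missed the threshold (DESeq2 adjusted p = 0.219), and -0.92 in batch 2.

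LTB encodes lymphotoxin beta, which forms membrane heterotrimers with the product of the neighbouring LTA. A peak 2941 bp from LTB (chr6:31585366-31587225), whose nearest gene was LST1, held 94.8 to 126.7 in control (median 101.9) and 33.3 to 67.6 in knockdown (median 41.1). All knockdown libraries were below all controls, with a log2 fold change of -1.14 (SE 0.14, DESeq2 adjusted p = 1.22e-13). The strongest peak of this locus, 930 bp from LTA, held 213.7 in control and 223.5 in knockdown on average and was not called (log2 fold change 0.08, DESeq2 adjusted p = 0.507). A loss close to LTB thus stood beside a stronger peak without a call, which was chosen after its values were seen.

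FASLG, the ligand of FAS on cytotoxic cells, had 1 called peak of 3. It lay 14885 bp from the gene (chr1:172643364-172644218) and held 37.5 to 50.7 in control (median 42.7) and 19.6 to 25.1 in knockdown (median 21.2). The groups were apart, with a log2 fold change of -0.98 (SE 0.20, DESeq2 adjusted p = 4.75e-06). The peak inside FASLG held 60.7 in control and 74.5 in knockdown on average and was not called (DESeq2 adjusted p = 0.0875).

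TNFSF9, CD70 and TNFSF14 are neighbours on chromosome 19, and their ligands act on TNFRSF9, CD27 and, for TNFSF14 (LIGHT), on LTBR and TNFRSF14. The 20 peaks of this locus included 2 gains and 3 losses. The peak 18798 bp from TNFSF14 (chr19:6641438-6642455) held 55.8 to 78.0 in control (median 66.8) and 29.6 to 40.1 in knockdown (median 34.2), a log2 fold change of -0.96 (SE 0.16, DESeq2 adjusted p = 4.25e-08). Near CD70, a peak 8845 bp away (chr19:6572101-6572803) held 30.7 to 41.1 in control (median 34.9) and 14.0 to 23.0 in knockdown (median 20.3). Its log2 fold change was -0.90 (SE 0.22, DESeq2 adjusted p = 0.000175), with -0.58 in batch 1, where it missed the threshold, and -1.14 in batch 2. In both peaks the groups did not overlap, whereas the peaks over the promoters of TNFSF14 and TNFSF9 were not called, at log2 fold changes of 0.27 and -0.21.

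**Figure D2:**
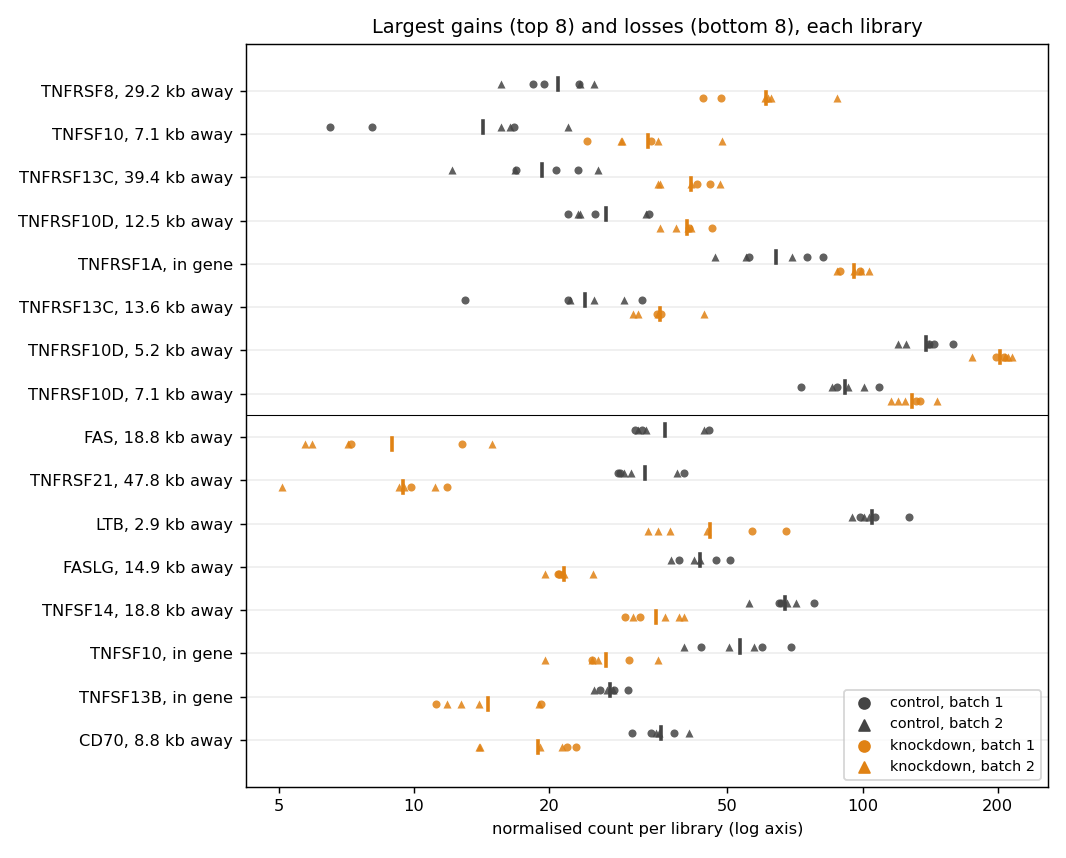
Normalised counts (log axis) of all 8 gains and the 8 largest losses among called peaks with a mean of at least 20 and no overlap within batches. Each symbol is 1 library (circles batch 1, triangles batch 2, dark control, orange knockdown), vertical bars are group means, and the labels give the nearest gene of the list with its distance. At FAS the knockdown libraries sit between 5.74 and 14.9, all below the controls, and at TNFRSF8 between 44.1 and 87.9, all above them.

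The death receptor with the largest change was FAS. Its only peak (chr10:88944612-88945255) lay 18795 bp outside the FAS span and nearest to ACTA2. Control libraries held 31.2 to 45.6 normalised counts (median 32.6) and knockdown libraries 5.74 to 14.9 (median 7.18), in raw counts 19 to 49 against 6 to 16. Every knockdown library was below every control, with a log2 fold change of -2.06 (SE 0.27, DESeq2 adjusted p = 1.51e-12), -1.89 in batch 1 and -2.16 in batch 2.

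TNFRSF21 (DR6), a receptor with a death domain, had 5 peaks, of which 2 were lost and 1 gained. The peak farthest upstream, 47803 bp from the gene (chr6:47357708-47358302), held 28.6 to 40.0 in control (median 30.01) and 5.1 to 11.9 in knockdown (median 9.69). It did not overlap between the groups, and its log2 fold change was -1.81 (SE 0.26, DESeq2 adjusted p = 1.94e-10). The other lost peak, 25495 bp upstream, fell by 1.69 on the log2 scale and the gained one, inside the gene, rose by 0.49 (DESeq2 adjusted p = 2.23e-06 and 0.00319). Both were chosen after their values were seen, and the gained one missed the threshold within batch 1 (DESeq2 adjusted p = 0.327). The peak over the promoter held 79.8 in control and 68.8 in knockdown on average and was not called (log2 fold change -0.18, DESeq2 adjusted p = 0.3).

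TNFRSF1A encodes the widely expressed TNF receptor with a death domain. The peak within the gene (chr12:6335556-6338006) held 46.8 to 81.8 in control (median 62.7) and 87.9 to 103.4 in knockdown (median 97.2). All knockdown libraries were above the controls, at a log2 fold change of 0.59 (SE 0.14, DESeq2 adjusted p = 0.000108), although it missed the threshold in batch 1 (0.42, DESeq2 adjusted p = 0.340). The peak over the TNFRSF1A promoter held 19.9 and 18.9 on average in control and knockdown and was not called.

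TNFRSF10A to TNFRSF10D, the death and decoy receptors of TRAIL, lie next to each other on chromosome 8. Together they had 13 peaks within reach, of which 5 were gained and 3 lost. Among the 9 peaks within reach of the decoy receptors TNFRSF10C and TNFRSF10D, 5 were gained and 2 lost. Of all peaks 42% were called (21.3% gained and 20.7% lost), and the difference of these few neighbouring peaks from that background was not tested. The only peak between TNFRSF10C and TNFRSF10D (chr8:23128902-23130367), which was also the peak nearest an end of TNFRSF10C, was gained. It lay 5221 bp from TNFRSF10D. Control libraries held 120.1 to 159.1 (median 140.5) and knockdown libraries 175.3 to 215.3 (median 206.9) without overlap, a log2 fold change of 0.56 (SE 0.10, DESeq2 adjusted p = 1.68e-07). Within batch 1 this peak missed the threshold (0.47, DESeq2 adjusted p = 0.105).

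On the other side of TNFRSF10D, a peak 7067 bp away (chr8:23171094-23172343) held 72.8 to 108.9 in control (median 90.1) and 115.6 to 146.6 in knockdown (median 127.9). A weaker peak 12471 bp away (chr8:23176498-23177404) held 22.1 to 33.5 in control (median 24.4) and 35.4 to 46.1 in knockdown (median 41.0). In both, the groups did not overlap, with log2 fold changes of 0.50 (SE 0.12) and 0.63 (SE 0.20, DESeq2 adjusted p = 0.000141 and 0.00452). Both missed the threshold within batch 1 (DESeq2 adjusted p = 0.109 and 0.244). The weaker peak also missed it within batch 2 (DESeq2 adjusted p = 0.119).

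Losses in this cluster were smaller. The peak at an end of TNFRSF10D, within the gene, held 105.8 to 159.8 in control (median 121.0) and 87.9 to 109.0 in knockdown (median 97.2), a log2 fold change of -0.34 (SE 0.12, DESeq2 adjusted p = 0.0134). The peak at an end of TNFRSF10B held 148.6 to 181.9 in control (median 172.0) and 108.1 to 156.8 in knockdown (median 128.6), a log2 fold change of -0.33 (SE 0.11, DESeq2 adjusted p = 0.00672). In both peaks the groups overlapped. Both missed the threshold within batch 1 (DESeq2 adjusted p = 0.319 and 0.655), and the TNFRSF10D peak also within batch 2 (DESeq2 adjusted p = 0.177). After subtraction of the median change within 10 Mb neither was called, at -0.25 and -0.24 (adjusted p recalculated from DESeq2 = 0.0870 and 0.0648). Recalculated p-values used the DESeq2 estimate minus this median with its SE unchanged, so the error of the median was left out. Without 1 library, knockdown replicate 2 or control replicate 6, the TNFRSF10D loss was -0.29 in each case (DESeq2 adjusted p = 0.0828 and 0.0802).

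**Figure D3:**
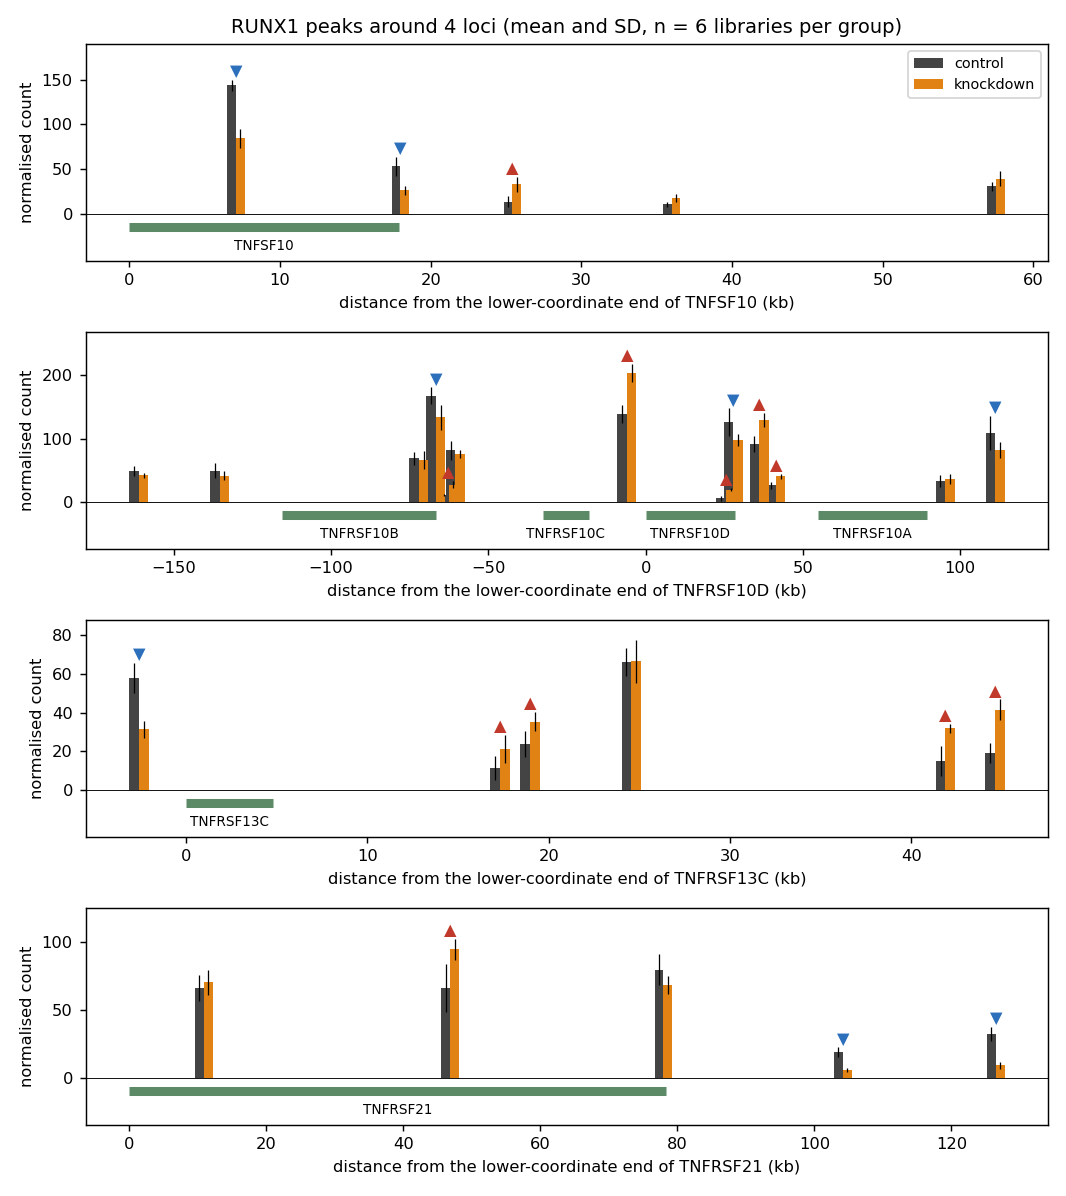
Mean normalised counts (bars start at 0, error bars SD, n = 6 libraries per group) of each RUNX1 peak around TNFSF10, the TNFRSF10 cluster, TNFRSF13C and TNFRSF21, by distance from 1 end of the gene named on the axis. Green lines are gene spans, red triangles mark gained and blue triangles lost peaks. Gains and losses occur together in each of the 4 loci, with TNFSF10 lost at its start (53.4 to 26.7) and gained upstream (14.2 to 33.3).

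TNFRSF13C encodes the receptor of BAFF on B cells. It had 6 peaks within reach, 4 gained and 1 lost. The lost peak was the nearest one, 2132 bp from the gene (chr22:41918964-41919900), with 47.5 to 69.5 in control (median 59.1) and 23.8 to 36.3 in knockdown (median 32.4). The groups did not overlap and the log2 fold change was -0.89 (SE 0.17, DESeq2 adjusted p = 1.69e-06). Within batch 1 it was -0.71 and missed the threshold (DESeq2 adjusted p = 0.161). The largest gain lay 39379 bp away and nearest to SEPTIN3 (chr22:41966185-41967091), with 12.1 to 25.8 in control (median 18.8) and 35.1 to 48.2 in knockdown (median 42.2), also without overlap. Its log2 fold change was 1.1 (SE 0.22, DESeq2 adjusted p = 3.51e-06).

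A further gain 13582 bp from TNFRSF13C held 13.03 to 32.3 in control (median 23.8) and 30.9 to 44.3 in knockdown (median 35.0). The groups overlapped across batches but not within either batch, at a log2 fold change of 0.58 (SE 0.22, DESeq2 adjusted p = 0.0223). This call was lost when any 1 of 5 libraries was left out (control replicate 2 or 5, knockdown replicate 1, 2 or 4), with log2 fold changes from 0.45 to 0.56 and DESeq2 adjusted p from 0.0576 to 0.0914. After subtraction of the median change within 10 Mb it was 0.41 and not called (adjusted p recalculated from DESeq2 = 0.124). Nor was this peak called within batch 1 or batch 2 alone (DESeq2 adjusted p = 0.347 and 0.223).

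TNFRSF8 (CD30) and TNFRSF1B, neighbours on chromosome 1, are receptors without a death domain. Their 9 peaks included 2 gains and 1 loss. The largest gain of the list by the naming rule lay 29212 bp from TNFRSF8 (chr1:12033325-12034091) and nearest to MIIP. Control libraries held 15.6 to 25.3 (median 21.5) and knockdown libraries 44.1 to 87.9 (median 61.1), so that all knockdown libraries were above the highest control. The log2 fold change was 1.42 (SE 0.20, DESeq2 adjusted p = 3.14e-11), 1.20 in batch 1 and 1.61 in batch 2. Within TNFRSF8, the peak nearest its start was weak, with 1.15 to 10.6 in control (median 4.55) and 8.31 to 18.6 in knockdown (median 13.5). These groups overlapped, and the log2 fold change was 1.40 (SE 0.42, DESeq2 adjusted p = 0.00277). This weak peak was not called within batch 1 or batch 2 alone (DESeq2 adjusted p = 0.248 and 0.064).

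TNFRSF19 had the largest loss of the list. Its only peak, inside the gene (chr13:23656540-23657062), held 16.9 to 27.9 in control (median 21.2) and 0 to 5.29 in knockdown (median 3.24), in raw counts 13 to 30 against 0 to 8. All knockdown libraries were below all controls, and the log2 fold change was -2.63 (SE 0.39, DESeq2 adjusted p = 2.63e-10). TNFRSF11A (RANK), the receptor that drives osteoclast formation from monocytic precursors, also had 1 peak, 44912 bp from the gene (chr18:62436200-62437822). It held 57.2 to 67.9 in control (median 59.98) and 23.7 to 44.7 in knockdown (median 35.8) without overlap, at a log2 fold change of -0.81 (SE 0.18, DESeq2 adjusted p = 3.14e-05).

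CD27, the receptor of CD70 on lymphocytes, had a lost peak 9716 bp away and nearest to VAMP1 (chr12:6461429-6462372). It held 15.6 to 35.8 in control (median 25.3) and 5.27 to 17.8 in knockdown (median 12), overlapping between the groups, with a log2 fold change of -1.35 (SE 0.29, DESeq2 adjusted p = 2.66e-05). At the other end of the range were the genes without a called single peak. These were TNFRSF12A with 6 peaks, TNFRSF14 with 3, TNFRSF17 with 2 and TNFSF15 with 1.

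The other 18 called peaks fell outside the naming rule. Of these, 10 were gained, with log2 fold changes of 0.48 to 1.64, and 8 were lost, with -1.69 to -0.34, and in 8 of the 18 the libraries did not overlap within batches. The largest gain and 1 loss among them are given here, chosen after their values were seen. The largest gain was a weak peak inside TNFRSF10D, with 0 to 9.38 in control (median 6.93) and 17.1 to 24.2 in knockdown (median 19.4), at a log2 fold change of 1.64 (SE 0.35, DESeq2 adjusted p = 1.97e-05). It missed the threshold within batch 1 (1.59, DESeq2 adjusted p = 0.0895). A peak 44278 bp from TNFRSF13B (TACI), a further receptor of BAFF, was lost, with 20.8 to 32.8 in control (median 30.2) and 4.61 to 14.9 in knockdown (median 10.3), at a log2 fold change of -1.50 (SE 0.27, DESeq2 adjusted p = 3.79e-07).

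By the peak nearest the start of each gene, or nearest an end of the span for the 10 genes placed that way, 2 of 32 genes had a gain, 10 had a loss and 20 had no call, so that 37.5% were called. Under the same rule 33.5% of all 16194 protein-coding genes with a peak were called (13.3% gained and 20.2% lost).

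The comparison was repeated within each batch. Within batch 1, 16 of the 105 peaks were called (4 gained, 12 lost), beside 12% of all peaks (5.38% gained, 6.61% lost), and within batch 2, 30 were called (11 gained, 19 lost), beside 25.8% (12.8% gained, 13.1% lost). Each single library weighed on these smaller fits. Without 1 library, batch 1 gave 8 calls (control replicate 1), 1 (control replicate 2 or 3) or 0 (either knockdown replicate), and batch 2 gave fewer than 20 without control replicate 5 (18) or 6 (17) or knockdown replicate 5 (18). With 1 knockdown library left in batch 1, which was then assumed to vary like the controls, 9 to 11 peaks had an unadjusted p under 0.05. Calls in both batches were made for 15 of the 105 peaks, beside 2776 of all 26642 peaks. The difference of the effect between batches was called for 0 of the 105 peaks (DESeq2 interaction term), with 2 at an unadjusted p under 0.05, and edgeR also called 0, with 5. Among all peaks DESeq2 called 0, and 2.51% had an unadjusted p under 0.05. The authors kept peaks that were reproducible between batches, so the peak list itself was chosen for presence in both.

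**Figure D4:**
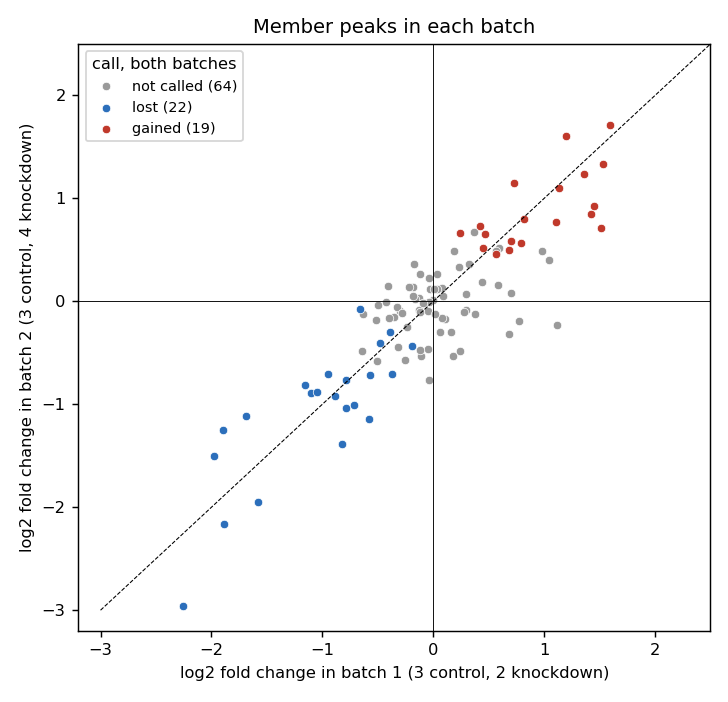
Log2 fold change of each of the 105 peaks in batch 1 (horizontal, 3 control and 2 knockdown libraries) against batch 2 (vertical, 3 control and 4 knockdown libraries), coloured by the call over both batches, with the dashed line marking equal values. The 19 gained peaks lie at the upper right and the 22 lost peaks in the lower left, while uncalled peaks gather around 0.

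Summed over all peaks within 50 kb of a gene, many genes held changes of both directions. Of the 32 windows, 13 (40.6%) were called, 6 gained and 7 lost, beside 42% of all 16194 gene windows (17.2% gained and 24.8% lost, DESeq2). The median log2 fold change was -0.11, against -0.06 over all protein-coding genes. With only peaks within 10 kb, 11 of 26 windows (42.3%) were called, 2 gained and 9 lost, beside 35.7% of such windows of all genes (14.4% gained and 21.3% lost). With only peaks whose nearest gene was the gene itself, 9 of 23 (39.1%) were called, 2 gained and 7 lost, beside 38.6% (17.5% gained and 21.2% lost). Among ligands, the windows of TNFSF13B, TNFSF8 and TNFSF10 were lost and none was gained, with 8 not called. Their log2 fold changes were -0.92 (SE 0.25), -0.51 (SE 0.14) and -0.34 (SE 0.08, DESeq2 adjusted p = 0.000808, 0.00101 and 0.000211). The TNFSF8 window was not called after subtraction of the 10 Mb median (-0.32, adjusted p recalculated from DESeq2 = 0.0532). It was not called within 10 kb either (-0.44, DESeq2 adjusted p = 0.0907).

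Among death receptors, the FAS window, which is its single peak, was lost and that of TNFRSF1A was gained, with 108.4 ± 21.2 in control and 140.3 ± 13.6 in knockdown (SD, n = 6). Its log2 fold change was 0.40 (SE 0.12), with a DESeq2 adjusted p = 0.00267. The windows of both TRAIL death receptors were not called, with 0.07 for TNFRSF10A and -0.14 for TNFRSF10B (DESeq2 adjusted p = 0.420 and 0.0582). That of the decoy receptor TNFRSF10D was gained, with 388.1 ± 28.9 in control and 490.1 ± 13.7 in knockdown (0.34 on the log2 scale, SE 0.06, DESeq2 adjusted p = 1.27e-07), whereas that of TNFRSF10C was not called (0.07, DESeq2 adjusted p = 0.334). TRAIL itself and 1 of its decoy receptors thus had window sums called in opposite directions. Summed over peaks within 100 kb, the TNFRSF10D window was 0.10 and not called (DESeq2 adjusted p = 0.0620).

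Among the other receptors, the windows of TNFRSF18 and TNFRSF4, costimulatory receptors of T cells that shared the same 5 peaks, were gained (log2 fold change 0.41, SE 0.11, DESeq2 adjusted p = 0.00101). LTBR was gained at 0.31 (SE 0.10), sharing its one called peak with TNFRSF1A, and TNFRSF13C at 0.22 (SE 0.08, DESeq2 adjusted p = 0.00684 and 0.0189). The TNFRSF13C gain rested on distant peaks, and its window was -0.89 when only peaks within 10 kb were summed. After subtraction of the 10 Mb median the TNFRSF13C window was 0.05 and not called (adjusted p recalculated from DESeq2 = 0.663). Only 1 of the 5 peaks of TNFRSF18 and TNFRSF4 was called, a weak gain 32727 bp from TNFRSF18 and nearest to TTLL10. Within 10 kb, the windows of TNFRSF18 and TNFRSF4 (0.28) and of LTBR (0.12) were not called (DESeq2 adjusted p = 0.0776 and 0.727). Within 100 kb, TNFRSF4 (0.17) and LTBR (0.10) were not called (DESeq2 adjusted p = 0.224 and 0.360). Lost windows were TNFRSF19 and TNFRSF11A, each with 1 peak, and TNFRSF14 (log2 fold change -0.27, SE 0.12, DESeq2 adjusted p = 0.0472). The TNFRSF14 call was lost without any 1 of 10 libraries, all but control replicates 2 and 4 (-0.29 to -0.20, DESeq2 adjusted p = 0.0509 to 0.153). That of TNFRSF13C was lost without control replicate 2 (0.20) or knockdown replicate 2 (0.21, DESeq2 adjusted p = 0.0544 and 0.06). Of the called TNF superfamily windows, only FAS, TNFRSF19 and TNFRSF11A were also called within batch 1 alone. In that batch TNFSF8 was -0.27, TNFRSF1A 0.23 and LTBR 0.16 (DESeq2 adjusted p = 0.562, 0.588 and 0.654). TNFRSF13C and TNFRSF14 were called in neither batch alone. For single batches no share of all gene windows is given here.

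Genes that act downstream of these receptors were described the same way, from a list of 36 adaptors, kinases, caspases, ubiquitin enzymes and inhibitors. Of these, 34 had a peak, and 16 of the 34 windows (47.1%) were called, 6 gained and 10 lost, beside 42% of all gene windows (17.2% gained and 24.8% lost). Among adaptors, TRAF6 and TRAF3 were gained at log2 fold changes of 0.84 (SE 0.11) and 0.54 (SE 0.14, DESeq2 adjusted p = 2.56e-13 and 0.000966), and TAB1 at 0.22. FADD, which links death receptors to caspases, was lost at -0.78 (SE 0.22, DESeq2 adjusted p = 0.00155), and so were CASP8 at -0.35, CASP10 at -0.31 and their inhibitor CFLAR at -0.34 (DESeq2 adjusted p = 0.0493, 0.0180 and 0.00321). The FADD window was 1 peak outside the gene, with 31.9 in control and 18.6 in knockdown on average. Summed over peaks within 100 kb, FADD was -0.08 and not called (DESeq2 adjusted p = 0.687). The genes CASP8, CASP10 and CFLAR are neighbours. CASP8 had 1 peak, which CASP10 shared, and 2 of the 3 CASP10 peaks also lay within reach of CFLAR. None of the 3 CASP10 peaks was called on its own. The CASP8 call was lost without any 1 of 8 libraries, all but control replicates 2 and 5 and knockdown replicates 3 and 6 (-0.39 to -0.28, DESeq2 adjusted p = 0.0504 to 0.158). The CASP10 call was lost without control replicate 6 (-0.28) or knockdown replicate 2 (-0.27, DESeq2 adjusted p = 0.0639 and 0.0839).

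The subunits of the linear ubiquitin ligase RBCK1 and SHARPIN were lost, with log2 fold changes of -0.41 and -0.35, and the remaining subunit RNF31 was not called (DESeq2 adjusted p = 1.90e-11 and 3.86e-05 for the first 2). The deubiquitinase OTULIN and the NF-κB inhibitor TNFAIP3 were also lost, at -0.50 and -0.41, and the deubiquitinase CYLD was gained at 0.29 (DESeq2 adjusted p = 1.63e-05, 2.87e-06 and 0.0256). Among kinases IKBKB was lost at -0.49 and MAP3K5 at -0.22, and MAP3K14 was gained at 0.17 (DESeq2 adjusted p = 6.69e-07, 0.00218 and 0.0271). MLKL, the effector of necroptosis, was gained at 0.52 (DESeq2 adjusted p = 0.000688). The gains of TAB1, MAP3K14 and CYLD were each lost without any 1 of 6, 7 and 6 libraries, at DESeq2 adjusted p up to 0.202, 0.113 and 0.128. For TAB1 these were control replicates 2 and 5 and knockdown replicates 2, 3, 5 and 6, for MAP3K14 control replicates 3, 4 and 5 and knockdown replicates 1, 4, 5 and 6, and for CYLD control replicates 3, 5 and 6 and knockdown replicates 2, 4 and 5. Subtraction of the median change within 10 Mb left 8 of the 16 windows without a call. These were FADD (-0.46), TRAF3 (0.34), MAP3K5 (-0.09), SHARPIN (-0.16), TAB1 (0.02), MAP3K14 (0.13), CASP8 (-0.33) and CYLD (0.20). Their adjusted p recalculated from DESeq2 ran from 0.0506 to 0.875. With only peaks within 10 kb of the genes, 9 of 32 pathway windows (28.1%) were called, all of them lost, beside the 35.7% of all genes given above. TNFAIP3 was not among these 9 (-0.04, DESeq2 adjusted p = 0.814). By nearest gene only, RBCK1 was not called (-0.48, DESeq2 adjusted p = 0.112), and no peak had SHARPIN as its nearest gene. Of the called pathway windows, only TRAF6, RBCK1 and TNFAIP3 were also called within batch 1 alone (DESeq2). TAB1, MAP3K5, CASP8, CASP10, CFLAR, CYLD and MLKL were called in neither batch alone.

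**Figure D5:**
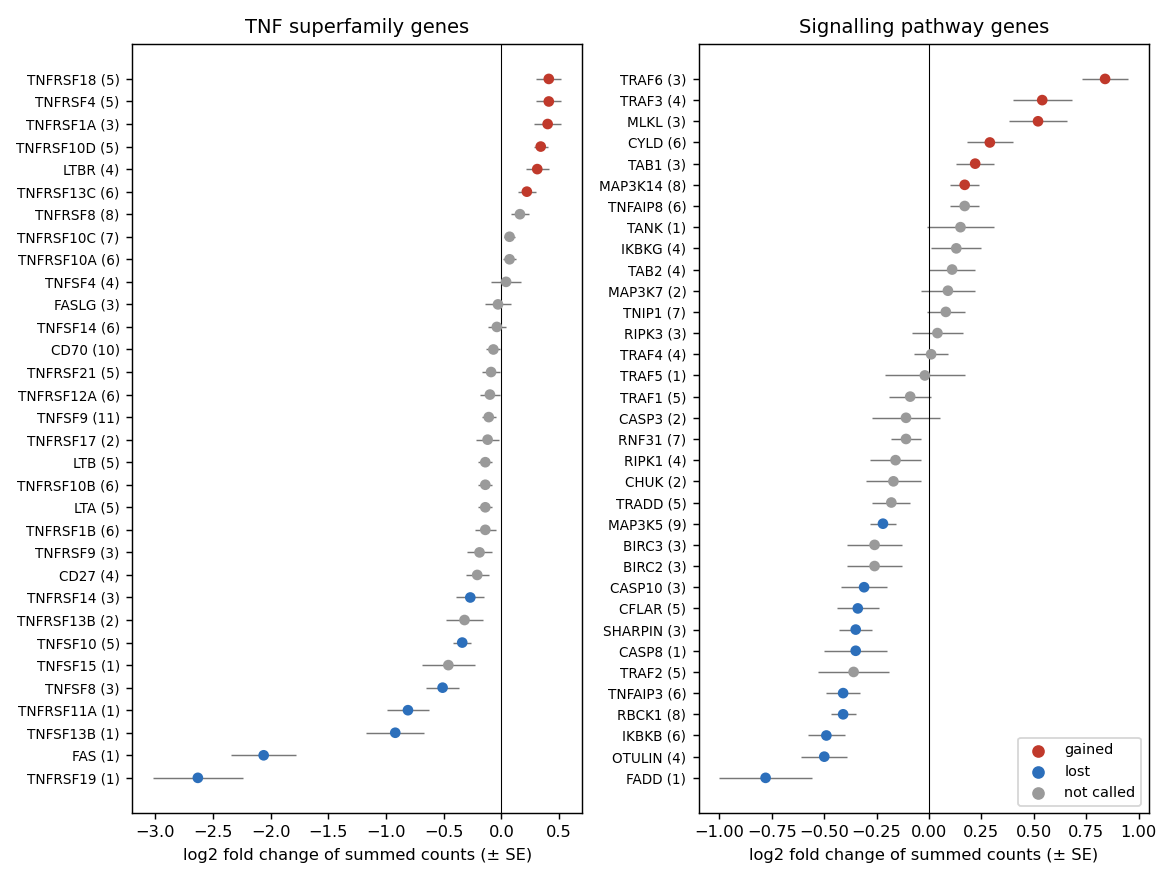
Log2 fold change (± SE) of the summed counts of all peaks within 50 kb of each TNF superfamily gene (left, 32 genes) and of each downstream gene (right, 34 genes), with the number of peaks in parentheses and the call in colour. The largest losses, TNFRSF19 and FAS, are windows of 1 peak.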

How the data were processed

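RUNX1 ChIP-seq of THP-1 cells was used as deposited, as raw read counts per peak for 12 libraries. As the methods of the study state, bowtie2 was used by the authors for alignment, duplicates were removed, macs2 called peaks separately for conditions and batches, reproducible peaks were merged over conditions, and the deposited counts came from featureCounts. Peak widths in bp were deposited as other information and used only as a description. The methods name a mouse build and the submitters' processing notes list GRCm38 and GRCh38. The coordinates were taken as GRCh38, since 16.2% of peaks lay over a RefSeq gene start, against 1.04% to 1.14% after shifts of 10000 or 100000 bp. No genome sequence was used, so sequences come from the promoter table, which held 25 of the 38 genes.

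Differential binding was tested over all peaks with DESeq2 1.42.0 in R 4.3.3, with batch in the model, since the groups are not balanced over batches, and with its default size factors (median of ratios). Peaks with Benjamini-Hochberg adjusted p under 0.05 and fold change over 1.1 were called. Gene windows sum the peaks within 50 kb of a span and used the size factors of the peak table. Peaks are named by rule. They are all 8 gains and the 8 largest losses (of calls with 20 or more normalised counts on average and no overlap within batches), the called peaks nearest the start of each gene, and all called windows. Uncalled neighbours and other peaks given beside them were chosen after their values were seen. The genes, the lists and the tests were chosen with earlier results of these data known.

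The depth counted here is reads within peaks, and counting error covers no other error. No library was a duplicate, since pairs within a group gave chi-square values of 1.29 to 2.29 per degree of freedom. Alternatives were edgeR 4.0.16, other size factors, no batch term, a replicate block, count filters, a stricter threshold, subtraction of the median change in 10 Mb windows, other distances and leaving out each library. In simulated counts for 26642 peaks with 200 changed, DESeq2 recovered 166 (83%) with 2 false calls. For 16194 gene windows, also with 200 changed, it recovered 195 (97.5%) with 11. All planted changes were 2-fold, at features with a mean of at least 10 normalised counts, with 1 common dispersion and no batch effect. In the data themselves 11185 of the 26642 peaks were called, many of them with smaller changes. Recovery of changes under 2-fold, or with so many changed peaks, was not tested.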

Additional observations from a re-analysis of the deposited data

Results flagged for a closer look

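The 23 named peaks, the called windows of TNF superfamily genes with more than 1 peak (identical windows once) and the 16 called pathway windows made 47 measures. In their 94 groups of 6 libraries a search was made for a library whose gap to its nearest neighbour took more of the whole range than Dixon's 95% critical value, a limit that chance passes in about 1 of 20 groups. It was passed in 5 groups, where 4.7 were expected. At the peak 13582 bp from TNFRSF13C, knockdown replicate 4 held 44.26 normalised counts, above the 30.88 to 35.62 of the other knockdown libraries. At the peak beside LTB, control replicate 3 held 126.7, above the 94.79 to 106.6 of the other controls. In the window of TNFRSF14, knockdown replicate 6 held 95.05, below the 105.9 to 111.9 of the others. In the window of CASP10, knockdown replicate 6 held 121.1, above the 92.83 to 100.5 of the others. In the window of TNFAIP3, control replicate 1 held 392.4, above the 281 to 320.3 of the other controls.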

How the results depend on the processing

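Of the 105 peaks, 41 were called. A minimum of 10 counts in every library left 24 calls of 75 peaks (8 gained, 16 lost), peaks within 10 kb gave 21 of 57, and edgeR gave 48. For the count minimum and for 10 kb no share of all peaks is given here, so these counts stand without a background. The minimum drops weak peaks, and called gains of the list were weaker than losses (median normalised count 23.8 against 33.2). Leaving out 1 library at a time gave 35 to 42 calls, 11 to 14 member windows, 12 to 18 pathway windows and a median log2 fold change from -0.081 to -0.018. Within batch 1, edgeR called 27 peaks in place of 16, and leaving out 1 library gave 0 to 8. Within batch 2 it gave 17 to 27 in place of 30. Pathway windows numbered 10 after subtraction of the 10 Mb median, and 9 within 10 kb or by nearest gene only, in place of 16. The window of TNFRSF13C was -0.89 within 10 kb and by nearest gene, those of TRAF6 -0.26 in both, MAP3K14 -0.02 and -0.10, and CYLD -0.39 and -0.08. Within 10 kb MLKL was -0.34 and CASP10 0.01, and within 100 kb TAB1 was -0.02. These settings sum fewer or other peaks. Of 23 named peaks, 20 kept direction and call under every setting that gave a value, and the minimum of 10 counts gave none for 8 of the 23. So did 9 of 29 named windows, and 2 to 4 of the 29 had no value under that minimum, within 10 kb or by nearest gene. Most of the named peaks were picked for a lack of overlap within batches, and the losses among these also for their size, which favours a kept call. The other 18 called peaks were not followed through these settings.

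Replicate numbers did not pair the libraries, with correlations of same-numbered libraries from -0.091 to 0.236 and 3 of 12 libraries closest to their own number. The replicate block in place of batch gave 38 called peaks, 11 member windows and 11 pathway windows. Under the block, the peak 13582 bp from TNFRSF13C was 0.59 and not called (DESeq2 adjusted p = 0.0535). The LTBR window was 0.29 under the block and not called (DESeq2 adjusted p = 0.0539).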
